A study of Mus musculus with 15 samples.

Results

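The nuclear genes for subunits of oxidative phosphorylation were examined in mouse liver 1 day after a single injection of saline, cisplatin or doxorubicin. They were taken from the deposited table by gene symbol (Nduf genes of the a, b, c, s and v series, Sdha to Sdhd, the Uqcr genes, Cyc1, the Cox4i to Cox8 genes and the Atp5 genes, without pseudogenes), and 85 of the 21878 genes in the table matched. Complex I had 37 of them, complex II 4, complex III 9, complex IV 18 and complex V 17. The symbols also brought in Atp5sl and Atp5s, which are not ATP synthase subunits: the reference names them Dmac2, a complex I assembly factor, and Dmac2l. Ndufa4 was counted with complex I by its symbol, although it is now regarded as a complex IV subunit. The subunits encoded by mitochondrial DNA were not analysed here.

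The mice were 8-week-old male C57BL/6J, and the liver libraries were made from poly(A) RNA. The 5 control samples came from mice given saline intraperitoneally. A further 5 came from mice given cisplatin, which crosslinks DNA, at 10 mg/kg (1 mg/mL in 0.9% saline), and 5 from mice given doxorubicin, an anthracycline that poisons topoisomerase II, at 10 mg/kg (2 mg/mL in sterile water). Vehicle and injected volume therefore differed between the drugs, and no group received water alone, so drug and vehicle cannot be told apart in the comparisons with doxorubicin. The labels number the samples of a group 1 to 5 without saying that each is a separate mouse, so p-values measure the spread between these samples, which may be technical in part. Values are FPKM, fragments scaled to gene model length and to sequencing depth, so that levels can be compared between genes. The last doxorubicin column carries a number that no label has, and it is called the unnumbered doxorubicin library.

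Oxidative phosphorylation runs in the inner mitochondrial membrane. Complexes I and II pass electrons from NADH and succinate to coenzyme Q, complex III passes them on to cytochrome c and complex IV to oxygen, while complexes I, III and IV pump protons whose return through complex V, the ATP synthase, drives ATP formation. All complexes except complex II combine nuclear with mitochondrially encoded subunits, and liver relies on them for gluconeogenesis, the urea cycle and fatty acid oxidation. The nuclear subunit genes are known as targets of the transcription factors NRF1, GABP (an ETS factor) and YY1 and of the coactivators of the PGC-1 family.

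Promoters of 69 of the 85 genes were in the RefSeq table for GRCm38.p6, each from 250 bases before to 50 after the gene start. The complex I and complex II genes with the smallest adjusted p after doxorubicin, and the complex IV gene that rose after both drugs, are shown, because their values carry the results below. Capitals mark letters searched on both strands, namely GCATGCGC for NRF1, CCGGAAG for ETS factors, AANATGGC for YY1 and TGACGTCA for the cyclic AMP response element. Ndufb2 lies at chr6:39592315-39592614 (plus strand), Sdhb at chr4:140961021-140961320 (plus strand) and Cox6b2 at chr7:4753045-4753344 (minus strand).
Ndufb2: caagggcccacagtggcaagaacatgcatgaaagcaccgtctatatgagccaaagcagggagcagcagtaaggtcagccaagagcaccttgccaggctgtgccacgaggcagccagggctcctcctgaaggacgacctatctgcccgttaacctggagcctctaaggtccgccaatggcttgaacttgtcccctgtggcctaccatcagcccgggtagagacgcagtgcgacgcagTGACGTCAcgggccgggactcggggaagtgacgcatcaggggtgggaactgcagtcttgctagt
Sdhb: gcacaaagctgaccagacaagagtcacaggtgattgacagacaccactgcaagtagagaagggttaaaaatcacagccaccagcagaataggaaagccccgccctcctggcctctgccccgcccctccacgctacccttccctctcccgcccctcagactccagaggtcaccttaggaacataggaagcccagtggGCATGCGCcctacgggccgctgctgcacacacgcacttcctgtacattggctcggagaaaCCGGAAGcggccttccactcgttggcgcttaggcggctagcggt
Cox6b2: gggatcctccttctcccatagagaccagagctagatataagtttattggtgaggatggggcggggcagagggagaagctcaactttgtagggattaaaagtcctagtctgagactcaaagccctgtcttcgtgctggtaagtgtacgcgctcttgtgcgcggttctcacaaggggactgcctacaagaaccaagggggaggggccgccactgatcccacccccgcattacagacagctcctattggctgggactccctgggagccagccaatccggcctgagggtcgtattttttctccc
The Ndufb2 window held the cyclic AMP response element, the Sdhb window held the NRF1 and the ETS letters, which do not overlap there, and the Cox6b2 window held none of the 4 motifs. The NRF1 letters stood in 10 of the 69 promoters (14.5%) against 2.8% of all 27025 promoters in the table. The ETS letters stood in 15 (21.7%, against 9.12% of all), the YY1 letters in 16 (23.2%, against 6.23%) and the response element in 4 (5.8%, against 1.88%). Of the 12 promoters of genes that fell after doxorubicin, 2 held the NRF1 letters, 1 the ETS letters, 4 the YY1 letters and 2 the response element. These matches describe letters in a window, and no site of binding was measured.

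Of the 85 genes, 80 reached 1 FPKM in 5 or more libraries and were tested. The other 5 were tissue-restricted complex IV isoforms, described below. In the saline group the highest mean levels were those of Cox6a1 (697 FPKM), Cox4i1 (661), Ndufa4 (565), Cox8a (405) and Atp5g3 (404). Together the 85 genes took 0.96 to 1.28% of the reads of a library. The libraries held 27.6 to 34.7 M reads assigned to genes (M, megareads) in the saline group, 25.3 to 31.0 M after cisplatin and 37.6 to 50.7 M after doxorubicin, so that the doxorubicin libraries were deeper than all others. Of the tested genes, 76 had a mean above 10 FPKM, and these had a mean of at least 342 reads a library.

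A pair of libraries stood apart in these genes by how many of them lay outside the rest of the group. In saline 2, 64 of the 80 tested genes (80%) lay above or below all 4 other saline libraries, and in the unnumbered doxorubicin library 72 (90%) lay outside the others of that group, where the remaining libraries had 3 (doxorubicin 3) to 55 (saline 4 and doxorubicin 2) such genes. The deviation from the median of the other 4 libraries had a median of 0.35 (log2 scale) in saline 2 over the 29 genes with models under 600 bases and of -0.32 over the 26 genes above 1100 bases. In the unnumbered doxorubicin library this median was 0.82 in the short and -0.06 in the long genes, and Spearman's rho between deviation and length was -0.69 over the 80 genes, which share a library and are no replicates. In saline 2 rho was -0.46, within the range of the other 13 libraries (-0.54 to 0.61), so that rho alone does not set it apart. Over all tested genes saline 2 was higher in both classes, with a median of 0.29 in short and 0.17 in long genes and a rho of 0.18, unlike the subunit genes. The unnumbered library had medians of 0.55 and 0.02 and a rho of -0.13 over all tested genes. Sdha, the longest model at 2859 bases, was at 42.8 FPKM in saline 2 and at 77.6 to 117 FPKM in the other saline libraries. Atp5k, the shortest at 292 bases, was at 114 FPKM in the unnumbered doxorubicin library and at 32.6 to 51.7 FPKM in the other doxorubicin libraries. Over all tested genes, 73.0% were outside the rest of the group in saline 2 and 49.7% in the unnumbered library. The other libraries had 23.9% (saline 5) to 57.0% (cisplatin 4), so this share does not set the unnumbered library apart over all tested genes. The labels give no RNA quality or run, and the part of either in this pattern was not tested. The main counts are therefore given with all 15 libraries and without this pair, a choice made after the values of these genes were seen.

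**Figure D1:**
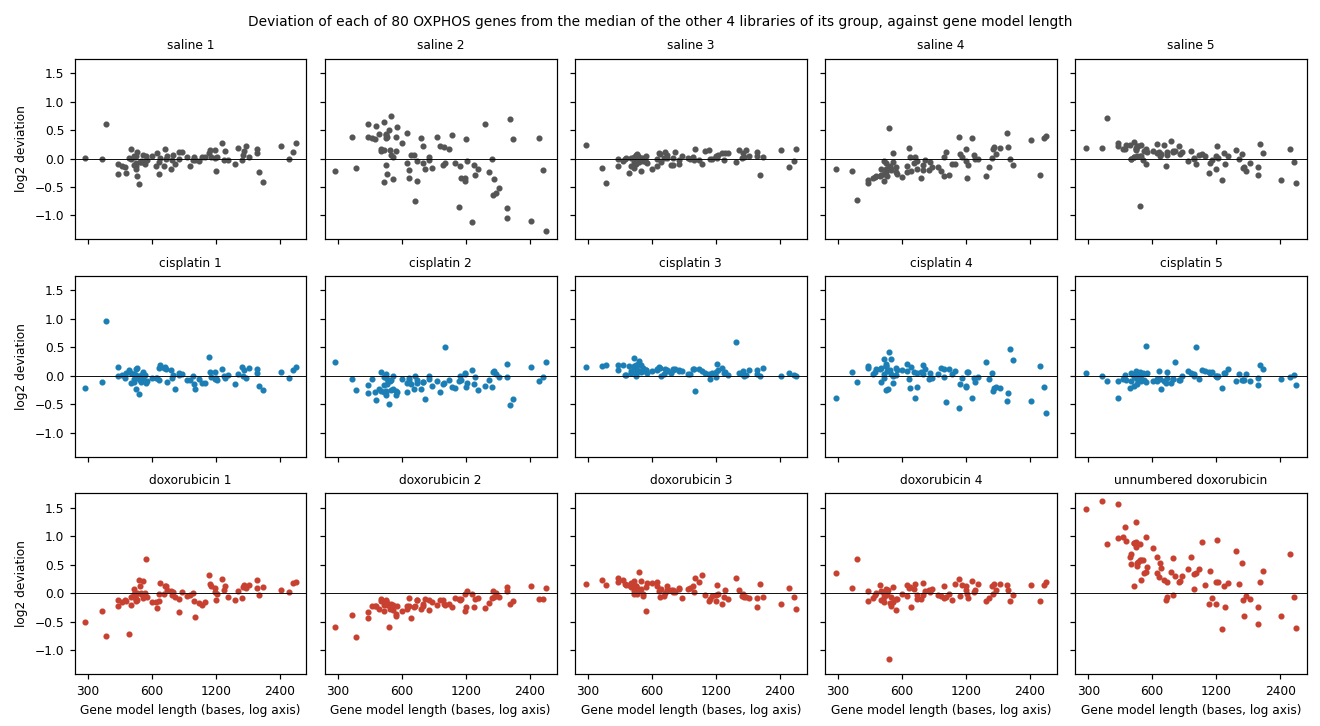
Deviation of each of the 80 tested genes (log2(FPKM + 1) minus the median of the other 4 libraries of its group, y axis) against gene model length in bases (log x axis), with 1 panel for each library. Points of the unnumbered doxorubicin library lie above 0 for short genes (median 0.82 under 600 bases), and points of saline 2 fall from 0.35 for short to -0.32 for long genes.

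The summed level of all 85 genes was 13780, 13960, 13800, 13040 and 14200 FPKM in saline 1 to 5 and 14170, 13190, 14890, 14010 and 14030 FPKM in cisplatin 1 to 5. In doxorubicin 1 to 4 it was 12050, 11030, 12420 and 12000 FPKM, and in the unnumbered library it was 16140 FPKM. The saline and cisplatin sums overlapped, and 4 doxorubicin libraries lay below every other library while the fifth lay above every other. The mean doxorubicin sum was 12730 ± 1970 FPKM (SD, n = 5) with all libraries and 11880 ± 595 FPKM (SD, n = 4) without the unnumbered one, beside 13760 ± 434 FPKM (SD, n = 5) in the saline group. The sums were described and not tested.

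**Figure D2:**
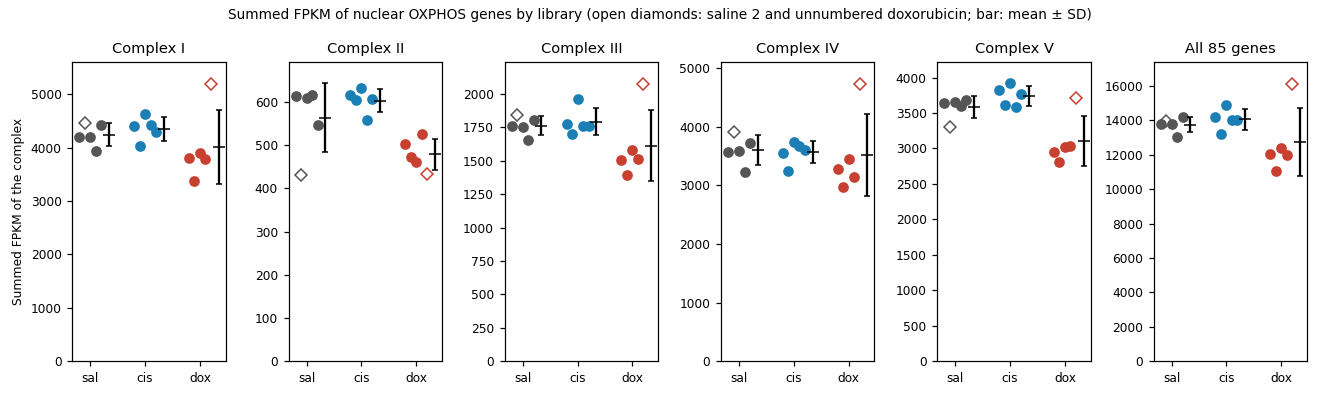
Summed FPKM of the genes of each complex and of all 85 genes (y axes, from 0) in saline (sal), cisplatin (cis) and doxorubicin (dox) libraries, with points for libraries, open diamonds for saline 2 and the unnumbered doxorubicin library, and bars for the mean ± SD of the 5 libraries. In complexes I, III, IV and V the unnumbered doxorubicin library lies above the 4 other doxorubicin libraries, with 3711 against 2812 to 3037 FPKM in complex V.

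After cisplatin few of the subunit genes differed from saline beyond the spread between libraries. By limma on log2(FPKM + 1), with p-values adjusted (Benjamini-Hochberg) across the 10552 tested genes and called below 0.05, 1 of the 80 rose (Cox6b2) and 0 fell. Cox6b2 passed the filter on low values only through the drug groups, where it is high. Of all tested genes 6.08% rose and 5.0% fell, 11.1% together. At an unadjusted p under 0.05, 5 of the 80 rose (6.25%, against 12.7% of all) and 0 fell (against 12.6%). The median change was 0.04 over the 80 genes and -0.01 over all tested genes, and 28 genes (35.0%) had a change below 0, beside 52.9% of all tested genes. Without saline 2 and the unnumbered doxorubicin library, 3 rose (Cox6b2, Ndufb6 and Cox7a2) and 0 fell, with background shares of 7.49% and 4.86% (12.3% together). In 4 genes (Atp5g2, Cox6b2, Cox7a2 and Ndufb6) every cisplatin library lay above every saline library, beside 5.33% of all tested genes, and in 0 did every one lie below, beside 4.39%.

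After doxorubicin subunit genes of complexes I, II, III and V fell, by 0.25 to 1.03 on the log2 scale. Of the 80 genes 13 fell (16.2%) and 2 rose, where 17.2% of all tested genes fell and 14.4% rose, so that the share that fell was near the background. Both directions together gave 15 genes (18.8%), beside 31.6% of all tested genes. In 8 genes (10%) every doxorubicin library lay below every saline library, beside 11.5% of all, and in 1 (Cox6b2) above, beside 10.5%. At an unadjusted p under 0.05, 17 fell (21.2%, against 23.4% of all) and 2 rose (2.5%, against 18.4%). The median change was -0.12 over the 80 genes beside -0.04 over all tested genes, and 61 genes (76.2%) had a change below 0 beside 56.4% of all. Without saline 2 and the unnumbered doxorubicin library, 30 of the 80 fell (37.5%, against 15.9% of all tested genes) and 2 rose (against 14.7%), where 30.6% of all were called. Then 69 genes (86.2%) were below 0, beside 53.0% of all, and the median change was -0.20 beside -0.02 over all. Removing the trend with gene length from each library, with all 15 kept, gave 28 that fell (35.0%, against 16% of all tested genes) and 2 that rose (against 16.9%). The count of falls thus depends on how these libraries are treated, and no test compared the 80 genes with the rest.

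**Figure D3:**
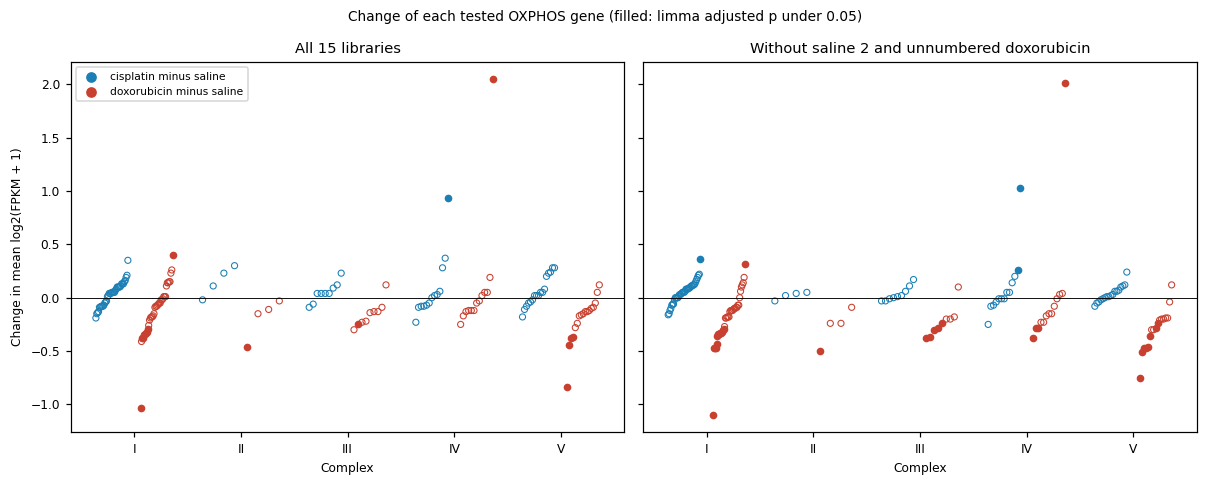
Change in mean log2(FPKM + 1) of each tested gene (y axis) by complex (x axis), after cisplatin (blue) and doxorubicin (red), with all 15 libraries on the left and without saline 2 and the unnumbered doxorubicin library on the right; filled points have a limma adjusted p under 0.05. Falls after doxorubicin number 13 on the left and 30 on the right, and Cox6b2 is the highest point of both panels.

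Complex I, the NADH dehydrogenase, had 37 tested genes, of which 7 fell and 1 rose after doxorubicin (13 and 1 without the pair of libraries). Of all tested genes 17.2% fell and 14.4% rose (15.9% and 14.7% without the pair), and these shares apply to each complex below. At an unadjusted p under 0.05 they were 23.4% and 18.4%. No test compared a complex with the rest. The falls in complex I were in Ndufb2, Ndufb5, Ndufb10, Ndufb3 and Ndufc2, accessory subunits of the membrane arm, in Ndufa6, an accessory subunit of the matrix arm, and in Ndufs1, the largest core subunit, which carries iron-sulfur clusters. Of the 7 core subunits, which are those present in bacteria too, 1 fell and the median change was -0.18. Of the 30 other genes 6 fell and 1 rose, with a median of -0.06. These were counted as accessory subunits by symbol and include Ndufa4 and its relative Ndufa4l2. The summed level of complex I was 4247 ± 214 FPKM in the saline group, 4357 ± 223 FPKM in the cisplatin and 4016 ± 690 FPKM in the doxorubicin group (n = 5 each, SD), and 3720 ± 234 FPKM (SD, n = 4) in the doxorubicin group without the unnumbered library.

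Ndufb2 had the largest fall of the 80 genes. It was at 87.3, 110, 77.2, 73.9 and 96.9 FPKM in saline 1 to 5, at 100, 85, 105, 101 and 86.9 FPKM in cisplatin 1 to 5, and at 27.4, 37.5, 45.7 and 45.9 FPKM in doxorubicin 1 to 4 and 65.0 FPKM in the unnumbered library. Every doxorubicin library lay below every saline and cisplatin library, and the saline and cisplatin values overlapped. The change after doxorubicin was -1.03 ± 0.17 on the log2 scale (SE, limma adjusted p = 0.000276), a mean of 0.497 times that of saline, and -1.10 without the pair of libraries. Exons of Ndufb2 (chromosome 6, 39592565 to 39599843, GRCm38) overlap those of Braf and the gene model Gm16272 on the opposite strand. They also overlap the gene model Gm42420 on the same strand, which no strand setting could separate. Overlaps here and below are those of GENCODE M21. The annotation release and strand setting of the counting are not given in the sources used here. Of the 83 genes with a recovered gene model length, 1 had the length of M21, so the models behind the FPKM differ from it. Where they hold the same overlaps, reads of these genes cannot be told apart from those of Ndufb2. The same condition applies to the overlaps named below.

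Ndufb10, which sits on the side of the membrane arm facing the intermembrane space, was at 187, 172, 179, 167 and 186 FPKM in saline 1 to 5, at 160.0 to 181 FPKM after cisplatin, and at 119, 117, 142, 143 and 166 FPKM after doxorubicin, the last in the unnumbered library. No doxorubicin value reached the lowest saline value, and the change was -0.38 ± 0.09 (SE, limma adjusted p = 0.00488). Ndufb5 fell from 92.2 ± 6.13 to 71.0 ± 7.74 FPKM (SD, n = 5 each), with no overlap of the groups and a change of -0.38 (limma adjusted p = 0.00288). Its exons overlap those of Mrpl47 on the opposite strand, and reads of these genes cannot be told apart. Ndufb3 fell from 74.4 ± 7.10 to 58.3 ± 5.11 FPKM, again with no overlap (change -0.34, limma adjusted p = 0.00632).  For Ndufc2 (-0.32), Ndufs1 (-0.29) and Ndufa6 (-0.33) the doxorubicin and saline values overlapped, with limma adjusted p of 0.0155, 0.0225 and 0.0494. Exons of Ndufs1 overlap Eef1b2 and Ino80dos on the opposite strand, with the same limit. The call on Ndufs1 was lost under median-ratio scaling (limma adjusted p = 0.127), with the length trend removed (0.0716) and without saline 4 (0.0588), doxorubicin 2 (0.0554) or doxorubicin 3 (0.0508). That on Ndufa6 was lost under 15 of 26 alternatives, among them each of 12 single libraries left out (all but saline 4, cisplatin 2 and the unnumbered doxorubicin library), with limma adjusted p up to 0.137.

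Ndufb6, another accessory subunit of the membrane arm, went the other way. It was at 83.1, 84.6, 79.8, 72.1 and 85.8 FPKM in saline 1 to 5 and at 115, 96.6, 104, 111 and 91.5 FPKM in cisplatin 1 to 5. In doxorubicin 1 to 4 it was at 116, 82.9, 110 and 95.0 FPKM, and in the unnumbered library at 140.0 FPKM. All cisplatin values lay above all saline values, while doxorubicin 2 lay within the saline range. The rise after doxorubicin was 0.40 ± 0.12 (SE, limma adjusted p = 0.0162) and 0.32 without the pair of libraries. After cisplatin the change was 0.35 ± 0.12 (SE, limma adjusted p = 0.0714), and without the pair 0.36 (limma adjusted p = 0.0306). Its exons overlap those of Smim27 on the opposite strand, with the same limit on its reads.

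Complex II, succinate dehydrogenase, is encoded by 4 nuclear genes and also serves in the citrate cycle. Sdhb, its iron-sulfur subunit, was at 215, 204, 228, 200 and 215 FPKM in saline 1 to 5, at 201, 188, 217, 222 and 220.0 FPKM in cisplatin 1 to 5, and at 142, 147, 151 and 166 FPKM in doxorubicin 1 to 4 and 164 FPKM in the unnumbered library. The 5 doxorubicin values lay below all others, and the saline and cisplatin values overlapped. The fall was -0.46 ± 0.08 (SE, limma adjusted p = 0.000262), a mean of 0.725 times that of saline, and -0.50 without the pair of libraries. The other 3 genes were not called. Sdha, the flavoprotein that oxidizes succinate, was at 89.7 ± 30.0 FPKM in the saline group and 79.7 ± 14.4 FPKM after doxorubicin. Sdhd, a membrane anchor, was at 103 ± 31.1 and 90.5 ± 17.3 FPKM, and Sdhc, the other anchor, at 159 ± 16 and 155 ± 8.95 FPKM (SD, n = 5 each). The summed level of the complex was 613.8, 431.7, 609.9, 616.8 and 548.1 FPKM in saline 1 to 5 and 502.3, 473.1, 460.5, 526.2 and 432.7 FPKM in the doxorubicin libraries, the last being the unnumbered one. Apart from saline 2, every saline sum lay above every doxorubicin sum.

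Complex III, the cytochrome bc1 complex, had 9 tested genes, of which 1 fell after doxorubicin (5 without the pair of libraries) and 0 after cisplatin by limma. At an unadjusted p under 0.05 it gave 2 falls after doxorubicin and 0 after cisplatin. The called gene was Uqcrfs1, the Rieske iron-sulfur protein that takes the first electron from coenzyme Q. It was at 170.0, 160.0, 169, 177 and 182 FPKM in saline 1 to 5, at 163 to 183 FPKM after cisplatin, and at 150.0, 126, 142, 148 and 157 FPKM after doxorubicin, the last in the unnumbered library. The doxorubicin values lay below all others by a narrow margin. The change was -0.25 ± 0.08 (SE, limma adjusted p = 0.0196), and under median-ratio scaling -0.20 (limma adjusted p = 0.101). The call was also lost without saline 5 (limma adjusted p = 0.0519) or doxorubicin 2 (0.0582). The changes of the other genes, among them cytochrome c1 (Cyc1) and the core proteins Uqcrc1 and Uqcrc2, lay between -0.30 and 0.12.

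Complex V, the ATP synthase, had 17 tested genes including Atp5sl and Atp5s, and 4 of them fell after doxorubicin (8 without the pair of libraries), while 0 were called after cisplatin by limma, where an unadjusted p under 0.05 gave 2 rises and 0 falls. Atp5c1, the gamma subunit of the central stalk that turns inside the catalytic head, was at 191, 171, 204, 191 and 196 FPKM in saline 1 to 5 and at 198, 165, 197, 194 and 212 FPKM in cisplatin 1 to 5. In doxorubicin 1 to 4 it was at 134, 134, 132 and 149 FPKM, and in the unnumbered library at 151 FPKM. No doxorubicin value reached the lowest value of the other groups. The fall was -0.44 ± 0.08 (SE, limma adjusted p = 0.000689), a mean of 0.735 times that of saline. Atp5o, which joins the head to the peripheral stalk, fell from 226 ± 15.8 to 174 ± 18.4 FPKM (SD, n = 5 each), with a change of -0.38 (limma adjusted p = 0.0112) and 1 doxorubicin value, that of the unnumbered library at 206 FPKM, within the saline range. Exons of Atp5o overlap a further protein-coding record of the same symbol on the same strand, and the opposite-strand models D430001F17Rik and Gm15976. Their reads cannot be told apart from those of Atp5o. Atp5j2, a small membrane subunit, fell from 358 ± 30.1 to 281 ± 70.5 FPKM (change -0.37, limma adjusted p = 0.0366), with the unnumbered library at 404 FPKM above all saline libraries and the other 4 at 230.0 to 269 FPKM below them all. That call was lost without saline 1, 2, 3 or 5 or any of doxorubicin 1 to 4, with limma adjusted p of 0.0595 to 0.0945.

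Atp5sl, not a subunit of the complex, was at 31.1, 53.4, 30.1, 34.6 and 39.5 FPKM in saline 1 to 5, at 23.6 to 43.7 FPKM after cisplatin, and at 19.9, 18.1, 21.9, 18.9 and 22.4 FPKM after doxorubicin. The doxorubicin values lay below all others, and saline 2 was the highest. The change was -0.84 ± 0.16 (SE, limma adjusted p = 0.000715). In the summed level of complex V, doxorubicin 1 to 4 lay at 2812 to 3037 FPKM and saline at 3308 to 3688 FPKM, where saline 2 was the lowest, and the unnumbered doxorubicin library lay at 3711 FPKM.

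**Figure D4:**
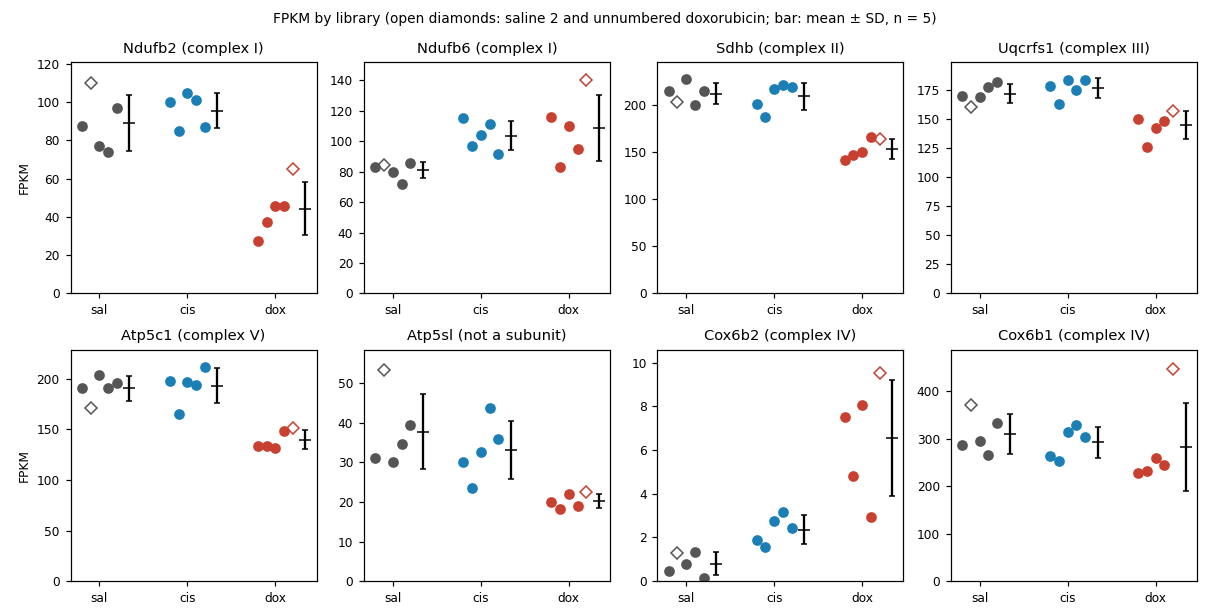
FPKM (y axes, from 0) of 8 genes in saline (sal), cisplatin (cis) and doxorubicin (dox) libraries, with points for libraries, open diamonds for saline 2 and the unnumbered doxorubicin library, and bars for the mean ± SD (n = 5). Doxorubicin values lie below all saline values in Ndufb2, Sdhb, Uqcrfs1, Atp5c1 and Atp5sl, and above them all in Cox6b2.

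Complex IV, cytochrome c oxidase, had 13 tested genes. None fell after doxorubicin by limma at an adjusted p under 0.05, and an unadjusted p under 0.05 gave 0 falls as well; without the pair of libraries 3 fell (Cox5a, Cox6b1 and Cox7c). The summed level was 3602 ± 251 FPKM in the saline group, 3562 ± 189 FPKM in the cisplatin and 3513 ± 698 FPKM in the doxorubicin group (n = 5 each, SD). In doxorubicin 1 to 4 it lay between 2972 and 3453 FPKM, and in the unnumbered library at 4721 FPKM. Cox6c, with a model of 503 bases, was at 711 FPKM in the unnumbered library beside 286 to 327 FPKM in the other doxorubicin libraries.

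Cox6b2, the testis isoform of the subunit that faces the intermembrane space, rose after both drugs from a level near the limit of detection. It was at 0.468, 1.29, 0.763, 1.32 and 0.127 FPKM in saline 1 to 5, which are 2 to 24 reads. It was at 1.86, 1.54, 2.75, 3.18 and 2.43 FPKM in cisplatin 1 to 5 (25 to 42 reads), and at 7.50, 4.80, 8.07 and 2.95 FPKM in doxorubicin 1 to 4 and 9.53 FPKM in the unnumbered library (58 to 213 reads). All values of either drug lay above all saline values, and doxorubicin 4 lay within the cisplatin range. In the saline group only saline 2 and saline 4 reached 1 FPKM. Cox6b2 thus passed the filter of 1 FPKM in 5 or more libraries only through the drug groups, where it is high. The change was 2.05 ± 0.25 after doxorubicin (SE, limma adjusted p = 1.64e-05) and 0.93 ± 0.25 after cisplatin (SE, limma adjusted p = 0.0247), on a scale that shrinks changes of low values. The cisplatin call was lost without saline 1 (limma adjusted p = 0.0572), saline 5 (0.0677), cisplatin 3 (0.0659) or cisplatin 4 (0.0521). With a pseudocount of 0.1 the cisplatin change was 1.69. Cox6b2 made up 0.26 ± 0.174% of the summed FPKM of the Cox6b genes in the saline group, 0.785 ± 0.138% in the cisplatin and 2.30 ± 0.811% in the doxorubicin group (n = 5 each, SD). The broadly expressed Cox6b1 was at 310.0 ± 41.6 FPKM in the saline group, 293 ± 32.8 FPKM after cisplatin and 282 ± 92.6 FPKM after doxorubicin.

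In the other isoform families the liver form made up nearly all or most of the level. The liver forms Cox4i1, Cox6a1 and Cox8a made up 100% of the summed FPKM of their families in all 3 groups, rounded to 3 digits. Cox4i2, known from lung, had 0 to 12 reads in a library. Cox6a2 and Cox8b, the heart and muscle forms, had 0 to 6 and 0 to 4 reads, and the testis forms Cox7b2 and Cox8c were listed at 0 in all 15 libraries, so these 5 genes gave no fold change. Cox7a1, the heart and muscle form, lay at 0.680 to 2.78 FPKM and made up 0.843 ± 0.409% of its family in the saline group and 0.706 ± 0.340% after doxorubicin. Cox7a2, the liver form, was at 141, 132, 138, 128 and 146 FPKM in saline 1 to 5, at 167, 156, 179, 168 and 161 FPKM in cisplatin 1 to 5, and at 128 to 150.0 FPKM in doxorubicin 1 to 4 and 225 FPKM in the unnumbered library. The saline and cisplatin values did not overlap. Its change after cisplatin was 0.28 (limma adjusted p = 0.148) with all libraries and 0.26 (limma adjusted p = 0.0262) without the pair. Cox5a made up 34.6 ± 8.54% and Cox5b 65.4 ± 8.54% of the Cox5 pair in the saline group, and 30.8 ± 3.86% and 69.2 ± 3.86% after doxorubicin; these are separate subunits, not isoforms of each other. Ndufa4l2, a relative of Ndufa4 that is known to respond to hypoxia, lay at 1.5 to 3.69 FPKM and made up 0.391 to 0.434% of the Ndufa4 pair in the means of the 3 groups.

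The Atp5g1, Atp5g2 and Atp5g3 genes encode the same mature c subunit, which forms the membrane ring of complex V. Atp5g3 was at 416, 319, 429, 407 and 447 FPKM in saline 1 to 5, at 493, 450.0, 487, 414 and 458 FPKM in cisplatin 1 to 5, and at 377, 334, 376, 349 and 343 FPKM in the doxorubicin libraries, the last being the unnumbered one. The doxorubicin values lay below all cisplatin values, and they overlapped the saline values through saline 2. Atp5g2 was at 71.7, 75, 86.6, 92.3 and 87.0 FPKM in saline 1 to 5, at 94.7, 97.2, 108, 96.6 and 103 FPKM in cisplatin 1 to 5, and at 79.3, 73.9, 86.0, 88.3 and 101 FPKM after doxorubicin, the last in the unnumbered library. Its change after cisplatin was not called (0.28, limma adjusted p = 0.0719) although the saline and cisplatin values did not overlap. Atp5g1 was at 187 ± 17.7, 189 ± 6.42 and 169 ± 19.4 FPKM in the 3 groups (SD, n = 5 each). Atp5g3 made up 59.8 ± 2.69% of the 3 genes in the saline group, 61.4 ± 1.24% after cisplatin and 58.4 ± 3.34% after doxorubicin.

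Compared with each other, doxorubicin and cisplatin at the same dose and time differed in 15 of the 80 genes, with 14 lower and 1 higher after doxorubicin, beside 11.4% lower and 9.0% higher, 20.4% together, among all tested genes. The median difference was -0.17 over the 80 genes and -0.02 over all tested genes, and 64 genes (80%) were below 0, beside 53.9% of all. Without saline 2 and the unnumbered doxorubicin library 38 were lower (47.5%, against 14.1% of all) and 1 higher (against 10.1%), where 24.2% of all were called. Without doxorubicin 2 alone 9 genes were called (11.2%, against 16.4% of all), and without the unnumbered library alone 24 (30.0%, against 17.9%). This comparison shares its doxorubicin libraries with the comparison against saline, so that its values are no separate evidence. The lowest adjusted p were those of Ndufb2 (-1.14, limma adjusted p = 0.000226), Sdhb (-0.44, 0.000695), Atp5c1 (-0.46, 0.000883) and Ndufs1 (-0.42, 0.00373). Atp5sl (-0.66, limma adjusted p = 0.00671), Ndufc2 (-0.34, 0.0161), Ndufb10 (-0.33, 0.0179) and Atp5o (-0.33, 0.0312) were also lower. Ndufv2, an iron-sulfur core subunit, was lower by this test (-0.31, limma adjusted p = 0.0366), as were Atp5f1, the b subunit of the peripheral stalk, whose exons overlap Gm42890 and Wdr77 on the opposite strand (-0.33, 0.0372), Atp5g3 (-0.37, 0.00959), Uqcrfs1 (-0.29, 0.0123) and Uqcr10, a small subunit of complex III (-0.30, 0.04996). Leaving out single doxorubicin or cisplatin libraries ended the calls on Ndufv2, Atp5f1, Atp5o and Uqcr10, with limma adjusted p of 0.0571 to 0.12, and leaving out doxorubicin 2 that on Ndufb10 (0.0522). Median-ratio scaling ended that on Atp5g3 (limma adjusted p = 0.0535). In 10 genes every doxorubicin library lay below every cisplatin library, beside 9.45% of all tested genes, and in 0 above, beside 6.9%. The gene higher after doxorubicin was Cox6b2 (1.11, limma adjusted p = 0.0046).

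**Figure D5:**
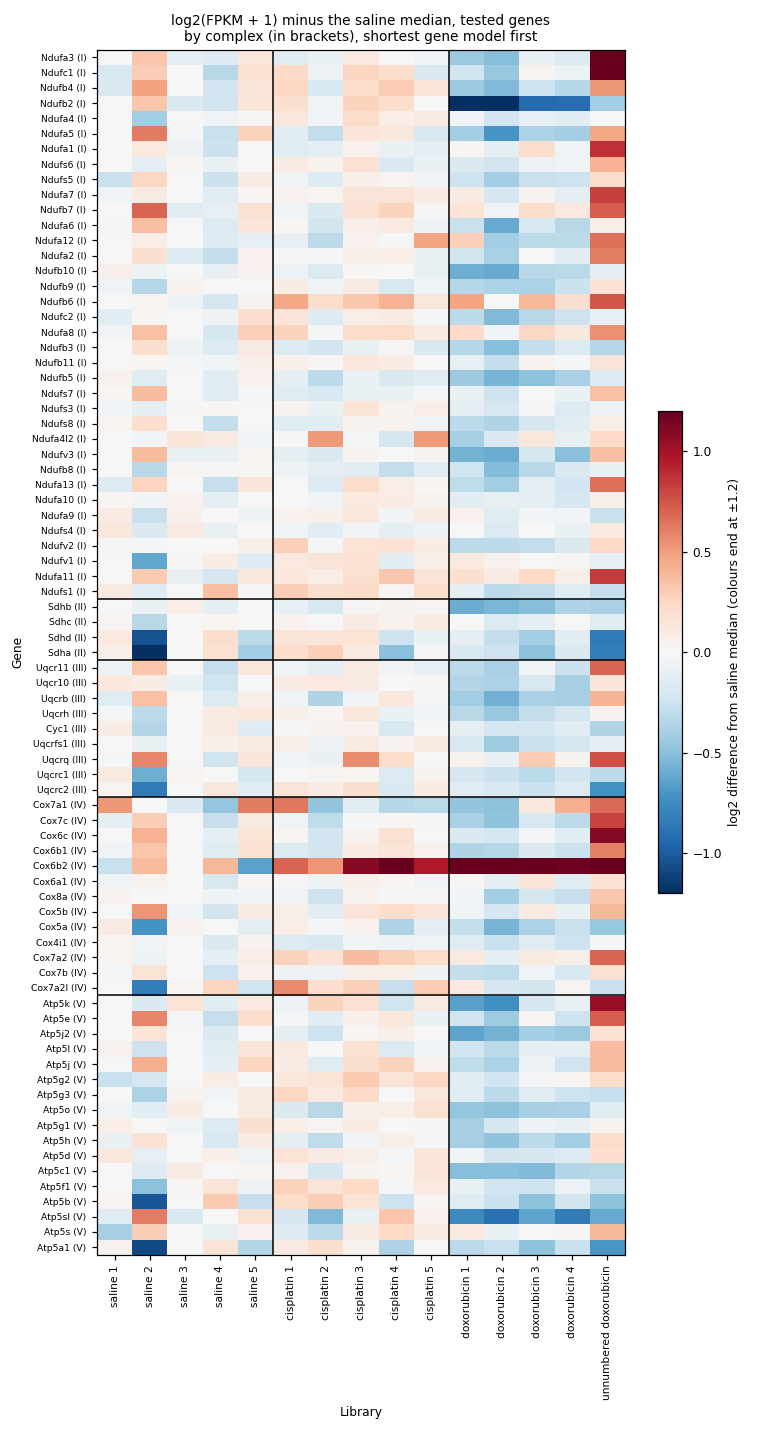
log2(FPKM + 1) minus the saline median for tested genes (rows, by complex and then by rising gene model length) in 15 libraries (columns); colours end at differences of -1.2 and 1.2. Ndufb2, Sdhb, Atp5c1 and Atp5sl are blue in all 5 doxorubicin libraries, Cox6b2 is red in all libraries of either drug, and the unnumbered doxorubicin library is red over most short genes.

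Regulators of respiratory gene transcription were listed, including factors such as Tfb2m and Tfam that act in mitochondria and not on the nuclear subunit genes. Some of the listed genes fell after doxorubicin. Nrf1 and Yy1 were not among those called by limma with all libraries. Of 13 tested of 14 listed regulators, 4 fell and 0 rose after doxorubicin (0 rose and 4 fell without the pair of libraries). After cisplatin 0 were called by limma at the adjusted threshold. Of all tested genes 17.2% fell and 14.4% rose after doxorubicin (15.9% and 14.7% without the pair), and 5.0% fell and 6.08% rose after cisplatin (4.86% and 7.49%). These shares also stand beside the counts in each list of related genes and markers below, and no list was tested against the rest. The median change of the regulators after doxorubicin was -0.12, and -0.06 without the pair, beside -0.04 and -0.02 over all tested genes. Ppargc1a (PGC-1alpha), the coactivator of mitochondrial biogenesis, was at 2.57 ± 0.330 FPKM in the saline group, 2.01 ± 0.549 FPKM after cisplatin and 1.00 ± 0.254 FPKM after doxorubicin (change -0.84, limma adjusted p = 0.000111). Its relative Ppargc1b fell from 2.76 ± 1.10 to 0.947 ± 0.226 FPKM (-0.91, limma adjusted p = 0.00157). Gabpa, the DNA-binding subunit of GABP, fell from 8.13 ± 0.775 to 5.55 ± 0.595 FPKM (-0.48, limma adjusted p = 0.000583). Its exons overlap those of Atp5j on the opposite strand, and reads of these genes cannot be told apart. Atp5j was at 303 ± 49.2 FPKM in the saline group and 259 ± 58.7 FPKM after doxorubicin. Tfb2m, a mitochondrial transcription factor, changed by -0.33 (limma adjusted p = 0.0244) with all libraries, and its adjusted p was 0.107 without the pair (SD, n = 5 each for the levels). Pprc1, a further relative of PGC-1alpha, was higher after doxorubicin than after cisplatin (0.49, limma adjusted p = 0.0193), and Tfam, which packages mitochondrial DNA, was lower (-0.28, limma adjusted p = 0.0486, and 0.0604 without the pair).

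Genes that assemble the complexes moved in both directions. Of 14 tested complex I assembly factors 1 rose (Ndufaf3, 0.40) and 1 fell (Ndufaf6, -0.37) after doxorubicin, and 2 rose after cisplatin (Ndufaf7, 0.37, and Ndufaf5, 0.35), by the same limma test; without the pair 2 rose and 2 fell after doxorubicin. Of 10 factors for complexes II and III, Sdhaf1, which helps insert the iron-sulfur clusters of Sdhb, rose after doxorubicin from 14.2 ± 2.70 to 23.5 ± 3.84 FPKM (0.69, limma adjusted p = 0.00142). Sdhb itself fell in the same libraries. Of 22 tested complex IV factors 4 rose and 1 fell after doxorubicin (3 and 2 without the pair). Cox18 (0.50), Coa4 (0.56) and Cox15, an enzyme of heme A synthesis (0.45), were among the rises, and Lrpprc, which stabilizes mitochondrial mRNA, fell from 27.3 ± 1.11 to 19.6 ± 1.80 FPKM (-0.47, limma adjusted p = 0.0002; SD, n = 5 each). Coa6 rose after cisplatin (0.35, limma adjusted p = 0.029). Of the 4 tested ATP synthase factors 0 were called after either drug by limma with all libraries.

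In coenzyme Q synthesis and electron transfer, 2 of 15 tested genes rose and 2 fell after doxorubicin (2 and 4 without the pair), and 2 rose and 1 fell after cisplatin (3 and 2). Coq7 and Coq2, enzymes of coenzyme Q synthesis, rose by 0.41 and 0.33 after doxorubicin and by 0.39 and 0.37 after cisplatin. Coq10a, a coenzyme Q binding protein, changed by -0.78 after doxorubicin (limma adjusted p = 3.97e-05) and -0.50 after cisplatin (limma adjusted p = 0.00609). These pairs of changes share their saline libraries. Etfa, which passes electrons from fatty acid oxidation to coenzyme Q, fell after doxorubicin from 211 ± 29.8 to 167 ± 14.3 FPKM (-0.33, limma adjusted p = 0.023). Of 14 citrate cycle enzymes 2 fell after doxorubicin, Idh3b (-0.34) and Cs, citrate synthase (-0.21), and 1 rose after cisplatin, Mdh2 (0.35). Of 15 carriers, pores and membrane-shaping genes 5 fell and 1 rose after doxorubicin. Mfn1 and Mfn2, which fuse mitochondria, changed by -0.49 and -0.29, Chchd3, a cristae protein, by -0.45, and Slc25a4, an ADP/ATP carrier of heart and muscle, by 0.44. Slc25a5, the broadly expressed ADP/ATP carrier, rose after cisplatin (0.38, limma adjusted p = 0.0295), and Chchd3 fell (-0.27, limma adjusted p = 0.0205).

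Bulk liver mixes cell types, and fewer cells of a type cannot be told apart from less RNA per cell. Beside the marker counts here and below, 14.4% of all tested genes rose and 17.2% fell after doxorubicin. After cisplatin these shares were 6.08% and 5.0%. The defining hepatocyte markers were high in all libraries, with a summed 63800 to 71200 FPKM over 9 tested genes in the saline group, 65200 to 70400 FPKM after cisplatin and 59000 to 69000 FPKM after doxorubicin, and 1 rose and 2 fell after doxorubicin (1 and 4 without the pair). After doxorubicin 6 of 9 tested Kupffer cell markers (5 without the pair) rose and 0 fell (summed 75.9 to 132 FPKM in the saline group and 154 to 254 FPKM after doxorubicin). All 4 tested monocyte markers of 8 listed rose, 3 of them without the pair (4.58 to 6.70 against 15 to 32.3 FPKM), with F13a1 below 1 FPKM throughout. Among them Ly6c2 was at 0.39 ± 0.195 FPKM in the saline group and 3.7 ± 2.28 FPKM after doxorubicin (SD, n = 5 each). A marker this low in saline could pass the filter of 1 FPKM through the doxorubicin group, where it is high. The share of tested monocyte and neutrophil markers that rose is thus partly set by the filter. All 3 tested neutrophil markers of 8 listed rose (4.73 to 9.02 against 26.6 to 41.2 FPKM), with Ngp, Camp and Mmp8 below 1 FPKM throughout. After cisplatin 0 of these Kupffer cell, monocyte and neutrophil markers were called by limma at the adjusted threshold.

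Of 10 sinusoidal endothelial markers 4 fell and 1 rose after doxorubicin and 3 fell after cisplatin (summed 61.8 to 89.9 FPKM in the saline group, 35.0 to 66.6 FPKM after doxorubicin and 24.4 to 59.5 FPKM after cisplatin). Of 5 tested erythroid markers 4 fell after either drug (311 to 513 FPKM in the saline group, 44.5 to 276 FPKM after doxorubicin and 35.5 to 56.1 FPKM after cisplatin), with Slc4a1 below 1 FPKM throughout. All 3 tested B and T cell markers fell after doxorubicin and 1 fell after cisplatin (6.36 to 8.64, 3.53 to 6.02 and 5.07 to 5.79 FPKM in the saline, doxorubicin and cisplatin groups), with Ms4a1, Cd3e, Cd3d and Cd8a below 1 FPKM throughout. Of 8 stellate cell markers 1 fell after each drug (79.2 to 118, 65.1 to 99.7 and 86.6 to 136 FPKM in the same order; without the pair 0 fell and 1 rose after doxorubicin, and 1 fell and 2 rose after cisplatin). Of 4 tested cholangiocyte markers 1 rose after each (25.3 to 39.1, 37.0 to 56.0 and 36.5 to 83.2 FPKM), with Cftr below 1 FPKM throughout. The part of these cell types in the changes of the subunit genes was not tested.

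The spread between libraries was as follows for the subunit genes. The median coefficient of variation over the 80 genes was 12.4% in the saline group, 7.86% after cisplatin and 16.6% after doxorubicin. Without saline 2 and the unnumbered doxorubicin library it was 8.19% in the saline group and 7.80% after doxorubicin. This pair was picked for its deviations in these same genes, so lower values follow from that choice. Of the 15 calls after doxorubicin, 9 held under each alternative that could be computed for them. They were Ndufb2, Ndufb5, Ndufb10, Ndufc2, Sdhb, Atp5c1, Atp5o, Atp5sl and Cox6b2. Cox6b2 passed the filter on low values only through the drug groups. A mean of at least 5 FPKM leaves it out, so it had 25 alternatives where Ndufb2 had 26. By length, 3 of the 29 genes under 600 bases, 6 of the 25 between and 4 of the 26 above 1100 bases fell after doxorubicin with all libraries, with median changes of -0.09, -0.17 and -0.12. Without the pair 11, 12 and 7 fell, with median changes of -0.21, -0.20 and -0.19.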

How the data were processed

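Liver RNA in 15 samples, 5 per group, was sequenced after poly(A) selection. Per the submitters' processing notes, the authors used Trim Galore 0.4.1, HISAT2 2.0.1 with GRCm38 (mm10), featureCounts 1.4.6 and edgeR, without a version. The deposited values are FPKM in 15 columns, of which 0 were unused. The annotation release, the strand setting and the treatment of reads with several matches are not given in the sources used here. Many of these genes have pseudogene copies, and 29 of the 85 overlap exons of another gene in GENCODE M21. The gene model length behind the FPKM equals that of M21 in 1 of the 83 genes with a recovered length.

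FPKM were used as deposited. Library totals were derived first, from FPKM values taken as 1 read and the exon lengths of GENCODE M21. Each total was given by 5 to 19 genes. With these totals, the shortest length that gave whole reads was taken as the gene model length (17787 of 17788 genes above 0, whole reads within 0.001). Read counts and lengths thus rest on these totals. The 10552 genes reaching 1 FPKM in 5 or more libraries were fitted on log2(FPKM + 1) with limma 3.58.1 in R 4.3.3 (all 3 groups in 1 fit, eBayes with trend and robust, two-sided, Benjamini-Hochberg over all tested genes at 0.05), after a check on simulated data. Tables and figures used Python 3.11.15, numpy 2.4.6, pandas 2.3.3, scipy 1.17.1 and matplotlib 3.10.9. Levels are mean ± SD, changes are on the log2(FPKM + 1) scale, which understates those of low genes, with standard errors from limma, and "without the pair" leaves out saline 2 and the unnumbered doxorubicin library.

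Genes were named by rule: up to 3 called genes per complex, direction and comparison by adjusted p, the 5 largest called changes per direction, the isoform families, and up to 3 called genes per direction in each related list, with all called regulators. Genes called only without the pair, and those shown for the length pattern, were named after their values were seen. The members and lists were chosen with earlier results of these data known, and no list was tested. The mitochondrially encoded subunits were not analysed here, and the values of 1 subunit gene, which stays in the counts and sums, are not reported here. Alternatives were pseudocounts of 0.1 and 0.5, no filter, a mean of at least 5 FPKM, TPM and median-ratio scaling, removal of the length trend by lowess (span 0.3), a fit of the pair of groups alone, a block on replicate number, plain eBayes, each library left out in turn and, added after the data were seen, leaving out the pair. A note in the series' design text disputes that doxorubicin information is present; the sample labels name the drug and were followed.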

Additional observations from a re-analysis of the deposited data

Results flagged for a closer look

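Of 48 groups of 5 libraries examined, 6 held a library whose gap to its nearest neighbour was over 0.71 of the range of its group. The groups were summed levels of complexes and levels of single genes. The sum of all genes and some genes with values given by library, such as Cox7a2, carry no flag here. In both of these the unnumbered doxorubicin library also stood above its group. Chance flags about 1 in 20 groups, and the 48 share their libraries. The summed level of complex III was 1965 FPKM in cisplatin 3, with the other cisplatin libraries at 1699 to 1775 FPKM. The unnumbered doxorubicin library stood above its group in complex III (2077 FPKM), complex IV (4721 FPKM) and complex V (3711 FPKM) and in Cox6b1 (447 FPKM, the others at 228 to 260.0 FPKM). Saline 2 stood below its group in complex V (3308 FPKM, the others at 3602 to 3688 FPKM).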

How the results depend on the processing

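After cisplatin the count of called genes was 1, and it was 0 with a mean of at least 5 FPKM (a filter that leaves out Cox6b2), 2 with median-ratio scaling, 2 with the length trend removed, 3 with only the groups compared and 3 without saline 2 and the unnumbered doxorubicin library. It ranged from 0 to 4 with each library left out, being 4 without the unnumbered doxorubicin library, 2 without doxorubicin 2 and 0 without saline 1, saline 5, cisplatin 3 or cisplatin 4. The median change after cisplatin was -0.03 with the length trend removed, against 0.04. After doxorubicin the count of 15 became 30 with the length trend removed and 32 without the pair, and it ranged from 11 to 29 with each library left out, 29 being without the unnumbered library. Between the drugs it was 39 without the pair and 9 to 24 with each library left out. The medians ranged from 0.01 to 0.06 after cisplatin, -0.17 to -0.09 after doxorubicin and -0.26 to -0.13 between the drugs with each library left out. The cause of these differences was not tested. With the replicate block on 14 numbered libraries, the counts were 1 after cisplatin, 17 after doxorubicin and 13 between the drugs. The block ended the calls on Cox6b2 after cisplatin (limma adjusted p = 0.0553), on Ndufb3 (0.0543), Ndufb6 (0.0823), Ndufa6 (0.0567) and Ndufs1 (0.0833) after doxorubicin and, between the drugs, on Cox6b2 (0.0637), Atp5sl (0.05006) and Atp5f1 (0.122). Deviations of samples with the same number correlated between -0.55 and 0.35, so the numbers are shared labels only and do not pair the samples. None of the calls changed direction under an alternative. Between the drugs 6 of 15 calls held under all alternatives. Depth limits Cox6b2, with as few as 2 reads in a library, and the 5 isoforms at or near 0.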
